A study of Mus musculus with 2 samples.

Results

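Mature neutrophils in 2 liver single-cell libraries were selected by their transcripts: 302 of 13846 cells after the antibody Ter119 and 276 of 11572 cells after saline, 578 of 25418 cells in all. The rule kept barcodes with at least 1000 UMIs (unique molecular identifiers, each marking a captured transcript), at least 500 genes and no more than 15% mitochondrial UMIs, and measured every share against N, the UMIs left after removal of 4 hemoglobin genes. A mature neutrophil then had S100a8 plus S100a9 at 1% of N or more, at least 1 UMI of Retnlg, Csf3r or Cxcr2, Camp plus Ngp under 0.5% of N, and at most 2 UMIs of Elane, Mpo, Prtn3 and Ctsg together. These 11 genes and the hemoglobin genes chose the cells, so their levels are given as a description only. The mice were C57BL/6J, 7 to 10 weeks old. For the Ter119 library, Ter119, an antibody that binds red cells, was given subcutaneously, first 35 ug and then 10 daily doses of 10 ug. For the saline library, saline was given in a similar volume, and livers were taken 24 (unit not given) after the last injection. Magnetic beads with antibodies to F4/80 and CD11b enriched the non-parenchymal cells, which were then stained with hashtag antibodies, pooled and run with 10x 3′ v3.1 chemistry; neutrophils carry CD11b, so the bead step can set their share. Each library was taken as 1 sample, as labelled, and the number of mice in it was not examined. With 1 library per treatment there is no replicate, no test was made, and the treatment cannot be told apart from the mice used or the library. Intervals in the text are exact 95% intervals (Clopper-Pearson for shares, conditional binomial for ratios) and cover counting error only.

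Neutrophils are made in bone marrow, where they fill granules in a fixed order. Primary granule genes such as Elane and Mpo are transcribed in promyelocytes, secondary granule genes such as Camp, Ngp and Ltf in later immature cells, and tertiary granule genes such as Mmp9 in nearly mature ones. Mature cells leave through CXCR2 and G-CSF receptor signals, keep abundant S100a8 and S100a9 (the subunits of calprotectin), hold little RNA, and lodge in liver sinusoids beside Kupffer cells, the resident macrophages.

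The libraries differed before any neutrophil was selected. There were 25760 barcodes in the Ter119 matrix, with 61892074 UMIs in all and 1854 in the median barcode, and 18354 in the saline matrix, with 97181787 UMIs in all and 3523 in the median barcode. Kupffer cells, here barcodes with Cd5l, Clec4f and Marco at 0.5% of N or more and S100a8 plus S100a9 under 1%, had a median of 3557 UMIs in Ter119 and 6899 in saline, so the same cell type gave 0.516 times as many UMIs in Ter119. Hemoglobin RNA made up 10.8% of UMIs in the kept Ter119 cells and 0.0135% in the kept saline cells. The libraries shared 133 barcode sequences; 1 Ter119 member and 2 saline members had such a barcode and 0 barcodes were members in both.

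The rule joins an abundant product, S100a8, with a receptor, Csf3r, and the 250 bases before the starts of these 2 genes are shown from RefSeq on GRCm38.p6, both on the plus strand: S100a8 at chr3:90668821-90669070 and Csf3r at chr4:126024409-126024658. Capitals mark GAGGAAG or its reverse complement CTTCCTC, letters recognised by the myeloid factor PU.1; the search covered both strands.
S100a8: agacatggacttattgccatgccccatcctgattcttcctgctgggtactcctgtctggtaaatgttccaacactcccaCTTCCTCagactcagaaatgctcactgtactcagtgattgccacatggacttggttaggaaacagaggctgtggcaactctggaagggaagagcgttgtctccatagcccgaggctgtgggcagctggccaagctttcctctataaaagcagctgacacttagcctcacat
Csf3r: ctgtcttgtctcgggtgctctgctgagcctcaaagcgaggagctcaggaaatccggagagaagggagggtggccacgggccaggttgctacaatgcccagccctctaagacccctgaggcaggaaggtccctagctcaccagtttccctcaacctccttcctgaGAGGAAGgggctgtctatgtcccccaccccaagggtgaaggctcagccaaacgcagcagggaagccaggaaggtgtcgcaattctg
Each sequence held 1 match, which began 171 bases before the start of S100a8 and 86 bases before that of Csf3r, and 10.6% of all 32851 mouse start windows of this length held it too. The windows of Retnlg and Il1b were searched as well and held 0 matches to these letters. Letters of C/EBP, AP-1 and NF-kB were also searched for in these genes, and only Retnlg held a match, 1 for C/EBP. A match is a description of the letters and not a site.

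By the rule, mature neutrophils took similar shares of both libraries: 2.18% of kept Ter119 cells (1.94 to 2.44%) and 2.39% of kept saline cells (2.11 to 2.68%). Their intervals overlap. The earlier stages differed. Among cells with S100a8 plus S100a9 at 1% of N or more, which numbered 983 in Ter119 and 279 in saline, the mature stage was 30.7% (27.8 to 33.7%) in Ter119 and 98.9% (96.9 to 99.8%) in saline. Immature cells, with Camp plus Ngp at 0.5% of N or more, numbered 609 in Ter119 (4.40% of kept cells) and 2 in saline (0.0173%). Cells with primary granule RNA numbered 35 in Ter119 and 1 in saline, and cells that had S100a8 and S100a9 but no UMI of Retnlg, Csf3r or Cxcr2 numbered 37 in Ter119 and 0 in saline. For 0 of 11572 the floor of 3 counts is a share of 0.0259% and the exact upper limit is 0.0319%. The Ter119 neutrophil pool therefore held many immature cells beside the mature ones, and the saline pool was nearly all mature. Some Camp or Ngp RNA was also found in mature cells, under the limit of the rule: 79 of 302 Ter119 members and 5 of 276 saline members had at least 1 UMI of Camp or Ngp. Cells that should lack the gene give a background for that count: 6.52% of 184 Ter119 lymphocytes (median 2034 UMIs) had a Camp UMI, against 15.6% of the Ter119 members (median 1975 UMIs), 0.362% of saline members (median 2268) and 0% of 111 saline lymphocytes. With every cell thinned to 500 UMIs the Camp shares were 5.30% in Ter119 members and 1.09% in Ter119 lymphocytes.

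The similar share depended on the UMI limit. In the Ter119 library most barcodes with the transcripts of mature neutrophils fell under 1000 UMIs. From 500 to under 1000 UMIs, 711 of 4475 Ter119 barcodes met the other parts of the rule (without a gene minimum) and 3 of 1330 saline barcodes did. The deposited matrices had unlike floors, with 500 UMIs in the smallest Ter119 barcode and 620 in the smallest saline barcode. The saline range thus held no barcode from 500 to under 620 UMIs, here and in the wider set below. The part of these floors in the comparison was not tested. With limits of 500 UMIs and 300 genes, mature neutrophils numbered 1077 of 18634 in Ter119 (5.78%, 5.45 to 6.12%) and 279 of 12905 in saline (2.16%, 1.92 to 2.43%). The Ter119 share was then above the saline share. The mature stage made up 56.7% of the 1901 S100a8 and S100a9 cells in Ter119 and 98.9% of the 282 in saline, with 672 immature cells in Ter119 and 2 in saline. The median member of this wider set had 778 UMIs in Ter119 and 2262 in saline, 0.344 times as many in Ter119, against 0.516 times in Kupffer cells. The part of depth in this was not tested. At 2000 UMIs the order turned the other way, with 1.62% in Ter119 and 2.04% in saline. No direction of the mature share is read from these data, and the main gene results are given for this wider set too, called the 500-UMI limit or the wider set.

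**Figure D1:**
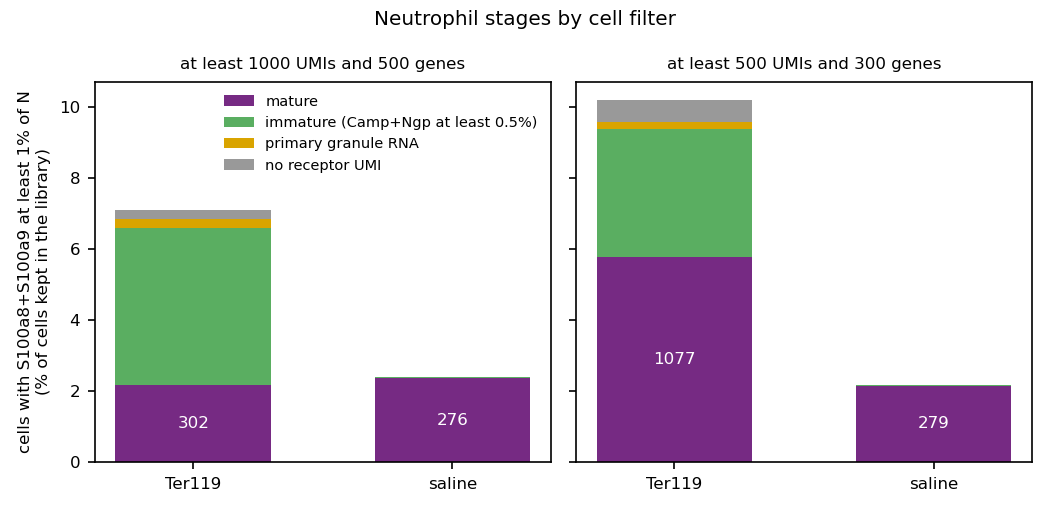
Cells with S100a8 plus S100a9 at 1% of N or more, as a percent of all cells kept in each library (vertical axis), split by stage, for 2 cell filters (panels), Ter119 left and saline right; numbers are mature cells. The mature parts are of like height with at least 1000 UMIs (302 in Ter119, 276 in saline) and differ with at least 500 UMIs (1077 in Ter119, 279 in saline), while immature cells appear in Ter119 under both.

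Members differed in depth and content between the libraries. Their median UMI count was 1975 in Ter119 (5th to 95th percentile 1041 to 5951) and 2268 in saline (1542 to 7867), over 639840 UMIs of N in Ter119 and 846148 in saline. S100a8 plus S100a9 took a median of 3.27% of N in Ter119 and 8.70% in saline, and 49 Ter119 and 119 saline members stood at 10% or more. The median receptor count (Retnlg, Csf3r and Cxcr2 together) was 6 UMIs in Ter119 and 18 in saline. Ter119 members thus had fewer UMIs and a smaller part of neutrophil RNA. Mitochondrial UMIs took a median of 2.48% in Ter119 members and 5.70% in saline members. At the edge of the rule, 26 Ter119 and 9 saline members had S100a8 plus S100a9 from 1% to 1.25% of N, and 42 Ter119 and 13 saline cells that otherwise met the rule lay just under it, at 0.75 to 1%. Exactly 1 receptor UMI was found in 34 Ter119 members and 1 saline member, and Camp plus Ngp lay just inside the limit, at 0.25 to 0.5% of N, in 12 Ter119 members and 0 saline members, and just outside it, at 0.5 to 0.75%, in 12 Ter119 cells and 1 saline cell.

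Kupffer RNA was present in nearly every member, and in larger amounts in Ter119. Cd5l, Clec4f and Marco, a secreted scavenger protein and 2 surface receptors of Kupffer cells, summed to 6631 CPM (counts scaled to a total N of 1000000) in Ter119 members and 4859.7 CPM in saline members, which was 57.8% of the level in Ter119 Kupffer cells and 35.7% of that in saline Kupffer cells. The same sum reached 29.5% of the Kupffer level in Ter119 immature neutrophils. In lymphocytes, which were capped at 0.5% of N for these genes, it reached 17.1% in Ter119 and 7.23% in saline. Per cell, the sum had a median of 0.537% of N in Ter119 members and 0.223% in saline members. At least 0.5% of N, the level that defines Kupffer cells here, was reached by 163 of 302 Ter119 members (54.0%, 48.2 to 59.7%) and 34 of 276 saline members (12.3%, 8.68 to 16.8%), and no UMI of these genes was found in 5 Ter119 and 2 saline members. The plot of both RNA kinds per barcode shows Kupffer RNA over the whole range of S100a8 and S100a9. Among members at 1 to 2% S100a8 plus S100a9 its median was 0.686% of N in Ter119 (93 cells) and 0.284% in saline (31 cells), and among those at 5 to 10% it was 0.450% in Ter119 (45 cells) and 0.209% in saline (64 cells).

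**Figure D2:**
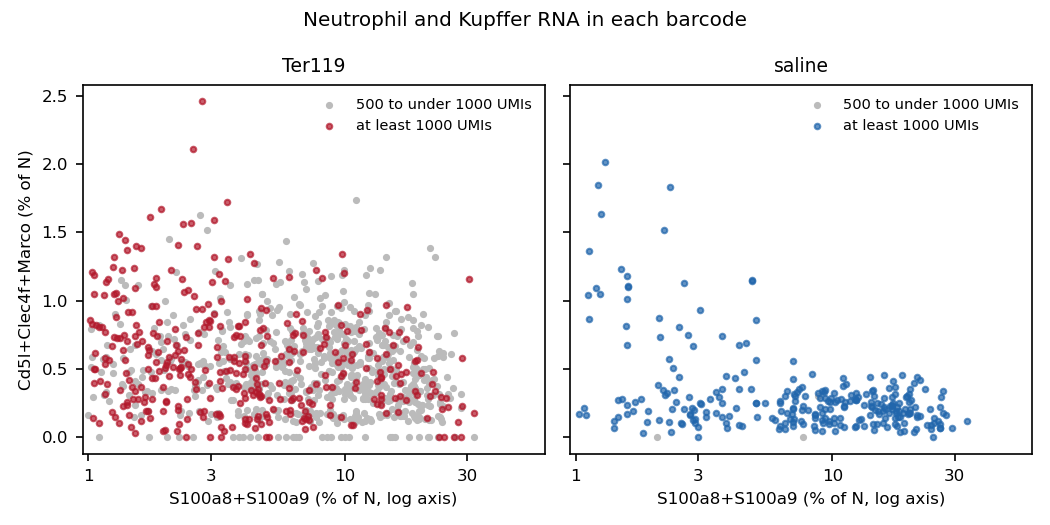
Each point is a barcode that met the neutrophil rule with at least 500 UMIs and 300 genes, with S100a8 plus S100a9 (% of N, log axis) against Cd5l plus Clec4f plus Marco (% of N), Ter119 left and saline right; grey points have fewer than 1000 UMIs. Kupffer RNA scatters up to 2.46% in Ter119 members and 2.01% in saline members. At least 0.5% is reached by 34 of the 276 saline members and 163 of the 302 Ter119 members.

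The label was checked against marker lists. All 5 neutrophil markers are genes of the rule, so their sums of 44542 CPM in Ter119 members and 92616 CPM in saline members describe the selection and do not test the label; in Kupffer cells, which the definition capped for S100a8 and S100a9, they summed to 399 CPM in Ter119 and 122 CPM in saline. Of 12 Kupffer markers 10 stood over 50 CPM in Ter119 members and 12 in saline members, with sums of 15910.2 CPM in Ter119 and 14408 CPM in saline. Markers of sinusoidal endothelium summed to 1272 CPM in Ter119 and 937 CPM in saline, with 10 of 10 over 50 CPM in Ter119 and 8 of 10 in saline, and hepatocyte markers to 372 CPM in Ter119 and 2048 CPM in saline. Of these 3 sums only that of hepatocytes was higher in saline. T and NK markers, led by Ccl5 in Ter119, summed to 561 CPM in Ter119 and 15.4 CPM in saline, with 1 of 10 at 0 in Ter119 and 6 of 10 in saline. Monocyte and macrophage markers summed to 1500.4 CPM in Ter119 and 1359 CPM in saline. Eosinophil markers summed to 358 CPM in Ter119 and 138 CPM in saline, with Epx and Prg3 at 0 in both. B cell and plasma cell markers summed to 81.3 CPM in Ter119 and 148 CPM in saline, and platelet markers to 395 CPM in Ter119 and 238 CPM in saline. These amounts were small beside the Kupffer sums. Hemoglobin took 5% or more of all UMIs in 112 Ter119 members and 0 saline members. Ter119 members also carried erythroid markers, mostly hemoglobin, which summed to 199811 CPM in Ter119 members and 46.1 CPM in saline members. Whether this RNA came from a second cell in the droplet or from free RNA was not tested.

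Summed over members, 3683 genes reached 50 CPM in at least 1 library. Of these 515 (14.0%) were higher in Ter119 by 2-fold or more and 540 (14.7%) lower by as much, with a median log2 ratio of 0.02 over all genes. With median-of-ratios scaling, which moves every log2 ratio by -0.14, the split was 391 higher and 650 lower, and with hemoglobin UMIs counted in the total it was 256 higher and 774 lower. Many of the higher genes stood higher still in Kupffer cells: 353 of 515 (68.5%) had more CPM in Ter119 Kupffer cells than in Ter119 members, against 49.2% of all genes compared. Of the 540 lower genes, 54 (10.0%) stood higher in saline Kupffer cells than in saline members, against 58.2% of all genes compared. With the 500-UMI limit, 263 of 3460 genes (7.60%) were higher and 206 (5.95%) lower; 259 of the 515 higher genes and 192 of the 540 lower genes kept their call. When the Kupffer profile of each library, scaled to Cd5l, Clec4f and Marco, was taken out of this wider set, 373 of 3137 genes (11.9%) were higher and 196 (6.25%) lower, and 239 of the 515 higher and 98 of the 540 lower genes kept their call. After subtraction from the 302 Ter119 and 276 saline members the counts were 971 higher (27.0%) and 550 lower (15.3%) of 3596. In the 49 Ter119 and 119 saline members with S100a8 plus S100a9 at 10% of N or more they were 937 (26.7%) and 491 (14.0%) of 3514, and in the 49 Ter119 and 118 saline members with Kupffer RNA under 0.2% of N 1063 (26.9%) and 672 (17.0%) of 3950. By the rule, after subtraction, in the wider set and at 10% S100a8 plus S100a9 alike, 164 genes were 2-fold higher and 94 were 2-fold lower in all 4.

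**Figure D3:**
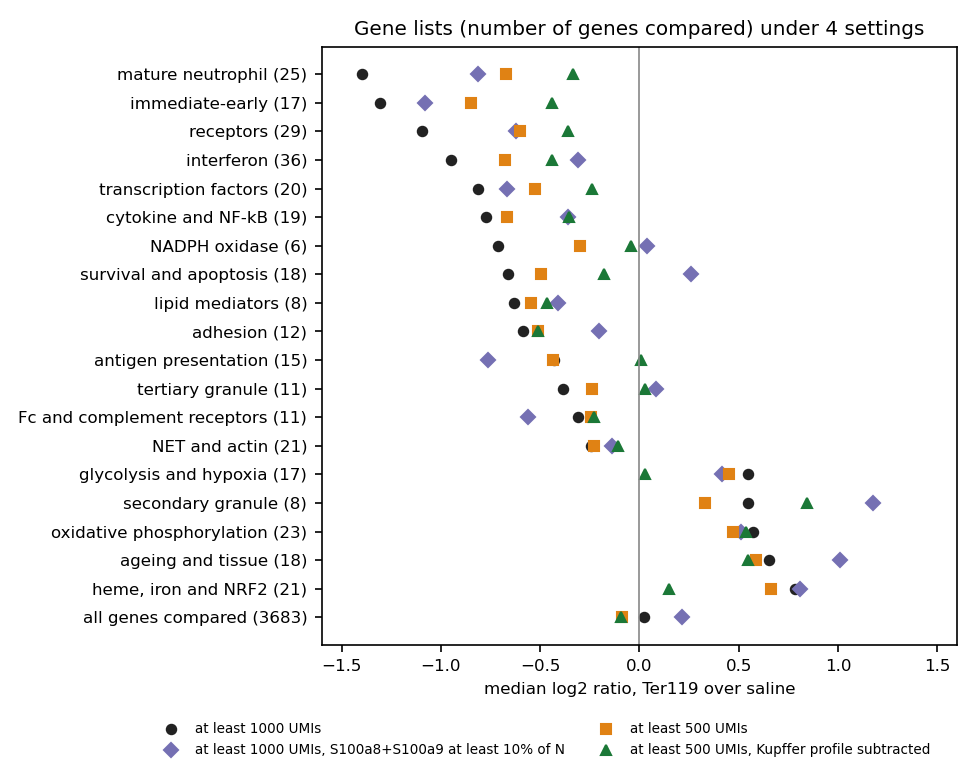
Median log2 ratio of Ter119 over saline for each gene list (rows, number of genes compared among the members in brackets) under 4 settings (symbols). The median of mature neutrophil genes lies at -1.40 among the members, -0.67 in the wider set and -0.33 after subtraction, where the median over all genes is -0.09.

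Genes that mark mature neutrophils were lower in Ter119 members, and less so in the wider set. The list counts here and below stand beside shares over all genes of 14.0% higher and 14.7% lower among the members. These shares were 7.60% and 5.95% in the wider set, and 11.9% and 6.25% after subtraction from it. Of the 25 mature neutrophil genes compared, 0 passed 2-fold upward and 20 downward in Ter119 members, with a median log2 ratio of -1.40. In the wider set 0 of 25 passed it upward and 4 downward, with a median of -0.67, and after subtraction of the Kupffer profile from that set 0 and 0 of 25, with a median of -0.33. With the 1000-UMI limit the lower level stayed for more of them: 12 of 25 were lower after subtraction (median -0.997), 7 with S100a8 plus S100a9 at 10% of N or more (median -0.82) and 19 with Kupffer RNA under 0.2% of N (median -1.26). Csf3r, the receptor for the growth factor G-CSF, had 486 CPM in Ter119 and 2098 CPM in saline, a ratio of 0.232 (0.205 to 0.262). Cxcr2, the receptor that draws neutrophils out of marrow and toward chemokines, had 320.4 CPM in Ter119 and 1190.1 CPM in saline, a ratio of 0.269 (0.231 to 0.313). Retnlg, a secreted resistin-like protein of neutrophils, had 3087 CPM in Ter119 and 4659.9 CPM in saline. All 3 are genes of the rule and their values describe the selected cells. With the 500-UMI limit Csf3r had 972 CPM in Ter119 and 2095 CPM in saline, Cxcr2 638 CPM in Ter119 and 1190.2 CPM in saline, and Retnlg 5233 CPM in Ter119 and 4655 CPM in saline. Retnlg thus changed order. S100a8 was at 20302 CPM in Ter119 and 43531 CPM in saline among the members and at 33310 CPM in Ter119 and 43516 CPM in saline with the 500-UMI limit, where subtraction left a log2 ratio of 0.020. Ly6g, the usual surface antigen for mouse neutrophils, was poorly captured, with 48.4 CPM in Ter119 and 46.1 CPM in saline.

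The level of these genes depended on the UMIs of the barcode. In Ter119, Csf3r had 1760.4 CPM from 500 to under 750 UMIs (509 barcodes), 1239 from 750 (199), 1037 from 1000 (118), 729 from 1500 (115) and 329 at 2500 or more (136). In saline, where 1 barcode from 500 and 2 from 750 UMIs are left out as too few, it had 2981 CPM from 1000 UMIs (10 barcodes), 3126 from 1500 (165) and 1373 at 2500 or more (101). Of these steps Csf3r was lowest in the one with most UMIs in both libraries, and the saline value from 1000 to under 2500 UMIs lay above every Ter119 value. S100a8 plus S100a9 took medians of 8.06%, 10.9%, 6.10%, 3.71% and 2.22% of N over the same 5 Ter119 steps, while hemoglobin took a median of 2.02% of UMIs in the lowest step and 18.7% in the highest. The Ter119 step with most UMIs thus had the lowest share of neutrophil RNA and the highest of hemoglobin RNA, and the part of this in the gene ratios was not tested.

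**Figure D4:**
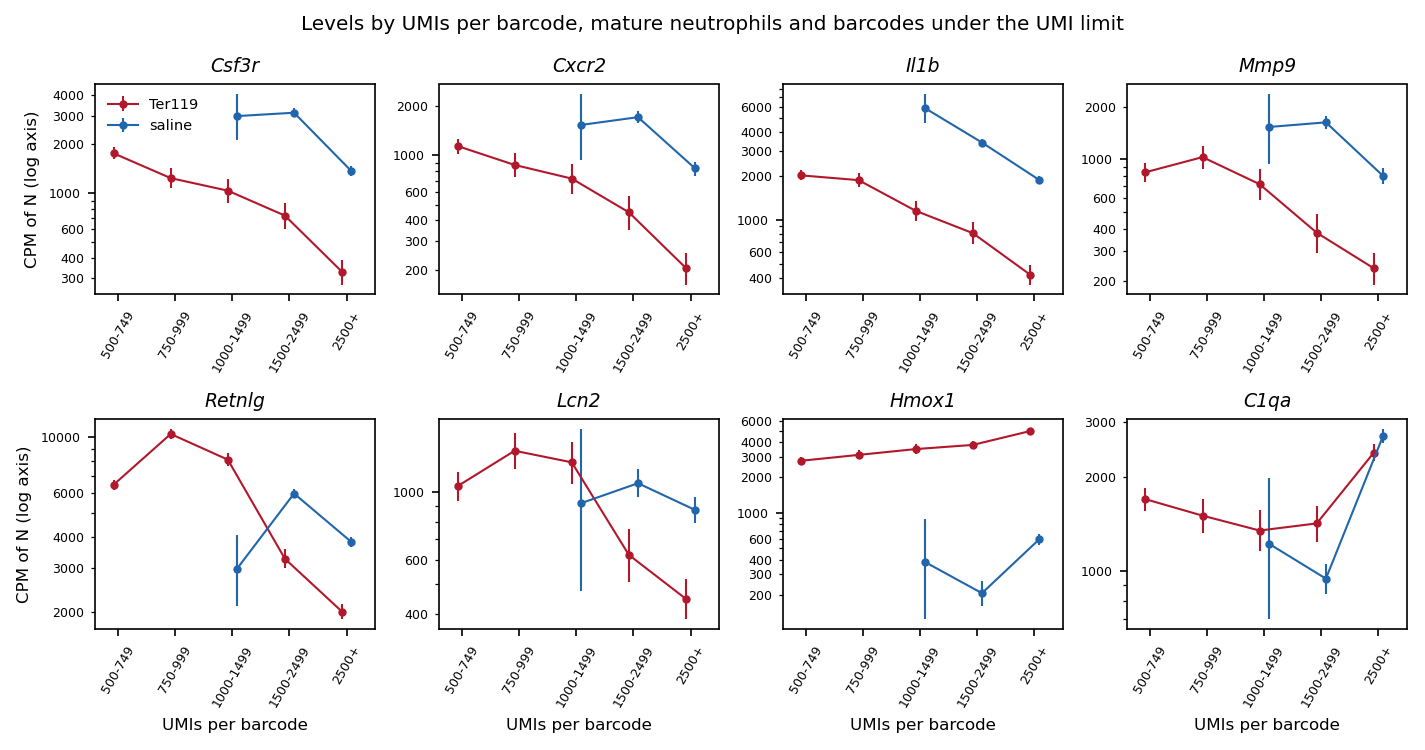
Level of 8 genes (CPM of N, log axis) against UMIs per barcode in steps, for Ter119 and saline neutrophils with at least 500 UMIs and 300 genes; bars are exact 95% counting intervals and steps with under 10 barcodes are left out. Among Ter119 barcodes Csf3r, Cxcr2 and Il1b are highest in those with fewest UMIs, where Csf3r reaches 1760.4 CPM, and Hmox1 stands higher in Ter119 than in saline at each step that both libraries fill.

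Receptor genes were lower in Ter119 members, and less so in the wider set. Among 29 receptor genes, 17 stood at least 2-fold lower in Ter119 members and 1 at least 2-fold higher (median log2 ratio -1.10). The wider set held 5 lower and 1 higher of 29 (median -0.60), or 1 lower and 0 higher of 29 once the Kupffer profile was subtracted (median -0.36). Csf3r and Cxcr2, genes of the rule, are in these counts, and without them 15 of 27 were lower and 1 higher among the members, with a median of -1.08, and 4 lower and 1 higher in the wider set, with a median of -0.59. Il1r2, the decoy receptor for interleukin 1, had 46.9 CPM in Ter119 and 215 CPM in saline, while the 500-UMI limit gave 101 CPM in Ter119 and 217 CPM in saline. Cxcr4, the marrow-homing receptor that aged neutrophils regain, had 105 CPM in Ter119 and 349 CPM in saline, while the 500-UMI limit gave 185 CPM in Ter119 and 350.0 CPM in saline. C5ar1, the receptor for complement fragment C5a, had 128 CPM in Ter119 and 389 CPM in saline, while the 500-UMI limit gave 201 CPM in Ter119 and 390.1 CPM in saline. These 3 receptors were lower in Ter119 in both sets, by over 2-fold among the members. Selplg, the selectin ligand PSGL-1, had 327 CPM in Ter119 and 961 CPM in saline, and Itgal, an integrin alpha chain, had 334 CPM in Ter119 and 759 CPM in saline. Of 12 adhesion genes compared, 3 were at least 2-fold lower among the members, 1 with the 500-UMI limit and 0 of 11 with the Kupffer profile subtracted from that set, while the median log2 ratio stayed near the same value at -0.59, -0.51 and -0.51. Over all genes the lower shares were 14.7%, 5.95% and 6.25% in these 3 settings. Clec4n, a lectin receptor also abundant in Ter119 Kupffer cells (1392 CPM), was the receptor that stood higher, at 908 CPM in Ter119 and 207 CPM in saline, and its log2 ratio was -0.30 once the Kupffer profile was subtracted from the wider set.

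Granule genes lay in both directions. Transcripts of 3 classic secondary granule proteins stood higher in Ter119 members: Ngp, a cathelicidin-related granule protein, had 126 UMIs (197 CPM) in Ter119 and 6 UMIs (7.09 CPM) in saline, Camp, the cathelicidin precursor, had 92 UMIs in Ter119 and 1 UMI in saline, a ratio of 122 (21.3 to 4857), and Ltf, lactoferrin, had 28 UMIs in Ter119 and 3 UMIs in saline. The rule capped Camp and Ngp but not Ltf. The Ltf ratio was 12.3 (3.81 to 63.4); in Ter119 Kupffer cells Ltf stood at 7.33 CPM, in Ter119 lymphocytes at 2.48 CPM and in Ter119 members at 43.8 CPM, and immature Ter119 neutrophils had 6815 CPM. Lcn2, an iron-carrier-binding protein made from the secondary stage onward, had 585 CPM in Ter119 and 950.2 CPM in saline, while the 500-UMI limit gave 849 CPM in Ter119 and 949.8 CPM in saline. Among tertiary granule genes, Mmp9, gelatinase B, had 322 CPM in Ter119 and 1143 CPM in saline, a ratio of 0.282 (0.241 to 0.328), while the 500-UMI limit gave 585 CPM in Ter119 and 1142 CPM in saline, a ratio of 0.512 (0.463 to 0.565). Mmp9 stood lower in Ter119 in both sets, while Lcn2 in the wider set lay near its saline level. Mmp8, neutrophil collagenase, had 389 CPM in Ter119 and 508 CPM in saline, while the 500-UMI limit gave 453 CPM in Ter119 and 507 CPM in saline. Slpi, an inhibitor of neutrophil elastase, had 702 CPM in Ter119 and 2263 CPM in saline, while the 500-UMI limit gave 1484 CPM in Ter119 and 2267 CPM in saline. Of the 8 secondary granule genes compared, 3 were higher and 1 lower among the members, against 3 and 0 with the 500-UMI limit; without Camp and Ngp, whose levels the rule used, they were 1 higher and 1 lower of 6, against 1 and 0. Ltf, under 50 CPM in both libraries, was not among them; the 3 higher were Camp, Ngp and Anxa3, an annexin, with 227 CPM in Ter119 and 75.6 CPM in saline, and the lower was Hp, haptoglobin, with 250.1 CPM in Ter119 and 902 CPM in saline. Hepatocyte markers also summed lower in Ter119 members, at 372 CPM against 2048 CPM in saline members. The part of hepatocyte RNA in the Hp ratio was not tested. Of 11 tertiary granule genes, 2 were higher and 4 lower, against 1 and 0 of 10 with the 500-UMI limit. Over all genes 14.0% were higher and 14.7% lower among the members. Primary granule genes were too low to compare except 2 of 10, Gstm1 and Ctsc, both of which stood higher in Ter119 Kupffer cells than in Ter119 members. Pglyrp1, a granule protein that binds bacterial peptidoglycan, had 511 CPM in Ter119 and 1166 CPM in saline, while the 500-UMI limit gave 901 CPM in Ter119 and 1169 CPM in saline, and subtraction from that set left a log2 ratio of 0.028.

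Immediate-early genes, switched on within minutes of a signal, were mostly lower in Ter119 members. Among 17 genes of the list, which also holds heat shock genes, 10 stood at least 2-fold lower in Ter119 members and 3 at least 2-fold higher (median log2 ratio -1.31). The wider set held 5 lower and 2 higher of 17 (median -0.85), or 0 lower and 3 higher of 17 once the Kupffer profile was subtracted (median -0.44). Junb, a subunit of the AP-1 transcription factor, had 256 CPM in Ter119 and 994 CPM in saline, a ratio of 0.258 (0.217 to 0.305), while the 500-UMI limit gave 399 CPM in Ter119 and 995 CPM in saline, a ratio of 0.401 (0.357 to 0.450). Fos, its partner, had 64.1 CPM in Ter119 and 316 CPM in saline, while the 500-UMI limit gave 134 CPM in Ter119 and 316 CPM in saline. Dusp1, a phosphatase that ends MAP kinase signals, had 252 CPM in Ter119 and 878 CPM in saline, while the 500-UMI limit gave 515 CPM in Ter119 and 878 CPM in saline. Junb and Fos stayed over 2-fold lower in the wider set and Dusp1 did not. The genes that stood higher were Hspa8, Hsp90aa1 and Hsp90ab1, chaperones named after their values were seen, and Hsp90ab1 had 1533 CPM in Ter119 and 516 CPM in saline. Socs3, the inhibitor of G-CSF receptor signalling, had 34.4 CPM in Ter119 and 149 CPM in saline, a ratio of 0.231 (0.140 to 0.365), while the 500-UMI limit gave 57.9 CPM in Ter119 and 152 CPM in saline.

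Cytokine and NF-kB genes included Il1b, Nlrp3 and Ptgs2, all lower in Ter119 members. The list had 19 cytokine and NF-kB genes to compare. Ter119 members were 2-fold or more above saline in 0 and below it in 8, at a median log2 ratio of -0.77; these counts were 0 and 6 of 19 in the wider set, at a median of -0.67, and 1 and 2 of 19 after subtraction, at a median of -0.36. Il1b, the precursor of interleukin 1 beta, had 600.1 CPM in Ter119 and 2555 CPM in saline, a ratio of 0.235 (0.210 to 0.262), while the 500-UMI limit gave 1188 CPM in Ter119 and 2562 CPM in saline, a ratio of 0.464 (0.433 to 0.496). It was detected in 54.3% of Ter119 members and 96.7% of saline members, or 29.5% of Ter119 and 69.6% of saline members after thinning to 500 UMIs, while 1.09% of Ter119 and 1.80% of saline lymphocytes had a UMI after the same thinning. Ptgs2, the inducible prostaglandin synthase COX-2, had 3 UMIs in Ter119 and 62 UMIs in saline, a ratio of 0.0640 (0.0128 to 0.196). With the 500-UMI limit it had 10 UMIs in Ter119 and 62 UMIs in saline, a ratio of 0.118 (0.0541 to 0.233). Il1b and Ptgs2 stayed over 2-fold lower in the wider set. Nlrp3, the inflammasome sensor, had 48.4 CPM in Ter119 and 179.6 CPM in saline, while the 500-UMI limit gave 89.1 CPM in Ter119 and 180.3 CPM in saline. Cxcl2, a chemokine that calls further neutrophils, did not share the lower level, with 134 CPM in Ter119 and 124 CPM in saline, a ratio of 1.08 (0.805 to 1.45). Hdc, which makes histamine, had 202 CPM in Ter119 and 995 CPM in saline, while the 500-UMI limit gave 381 CPM in Ter119 and 995 CPM in saline, a ratio of 0.383 (0.340 to 0.430). Alox5ap, the helper protein of leukotriene synthesis, had 520.4 CPM in Ter119 and 1331 CPM in saline, while the 500-UMI limit gave 864 CPM in Ter119 and 1329 CPM in saline.

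**Figure D5:**
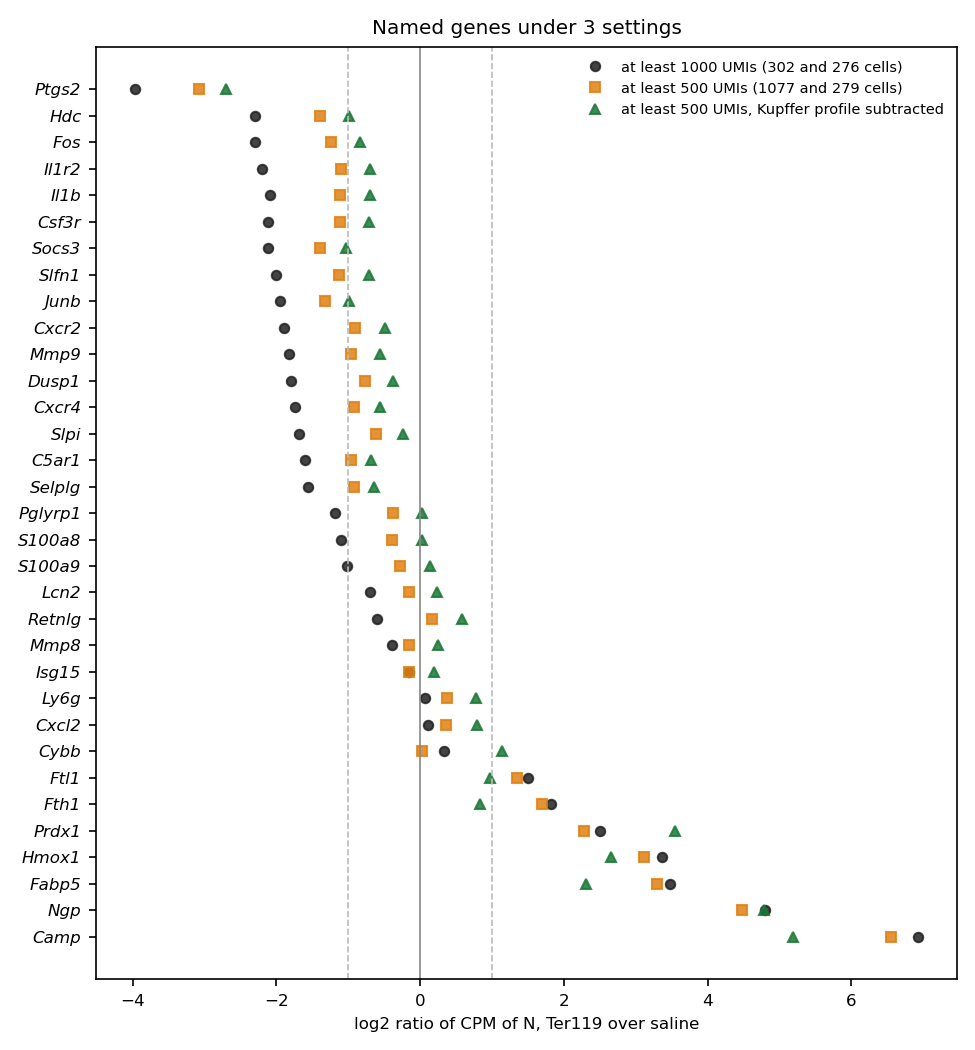
Log2 ratio of Ter119 over saline (horizontal axis) for 33 named genes (rows) among the members, with the 500-UMI limit, and with the Kupffer profile subtracted from that wider set; dashed lines mark 2-fold, and Camp rests on 1 saline UMI. Neutrophil genes such as Csf3r move toward 0, while Hmox1, Prdx1, Camp and Ngp stay to the right of the 2-fold line.

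Stage could be set against stage in Ter119 alone, since saline had 2 immature cells. Some genes that the rule did not use differed between the 302 mature and the 609 immature Ter119 neutrophils. Il1b had 600.1 CPM in mature and 21.4 CPM in immature cells, Il1r2 46.9 CPM in mature and 26.0 CPM in immature cells, and Hdc 202 CPM in mature and 128 CPM in immature cells. The granule genes lay the other way, with Ltf at 43.8 CPM in mature and 6815 CPM in immature cells, Lcn2 at 585 CPM in mature and 11013 CPM in immature cells, and Mmp8 at 389 CPM in mature and 725 CPM in immature cells. Mature Ter119 cells thus had more Il1b, Il1r2 and Hdc and less Ltf, Lcn2 and Mmp8 than the immature cells of the same library, while Kupffer RNA was at 57.8% of the Kupffer cell level in mature and 29.5% in immature cells. The stages share 1 library, and both were cut from the same measured counts, so this is a description. Ltf and Lcn2 are made with Camp and Ngp, the genes that split the stages, so their direction does not test the split. S100a8 plus S100a9 took a median of 27.0% of N in immature and 3.27% in mature cells, which lowers the CPM of other genes in immature cells. Il1r2 and Hdc differed by less than 2-fold.

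Among all Ter119 members interferon-induced genes passed 2-fold downward only, while some other settings also held higher genes. Among 36 interferon genes, 16 stood at least 2-fold lower in Ter119 members and 0 at least 2-fold higher (median log2 ratio -0.95). The wider set held 10 lower and 0 higher of 35 (median -0.68), or 7 lower and 0 higher of 33 once the Kupffer profile was subtracted (median -0.44). Slfn1, a schlafen family gene, had 161 CPM in Ter119 and 648 CPM in saline, while the 500-UMI limit gave 297 CPM in Ter119 and 646 CPM in saline. Cmpk2, a mitochondrial nucleotide kinase, had 34.4 CPM in Ter119 and 119 CPM in saline. Isg15, a ubiquitin-like protein, had 313 CPM in Ter119 and 347 CPM in saline, a ratio of 0.900 (0.748 to 1.08), and Ifitm3, a membrane protein that blocks virus entry, had 1307 CPM in Ter119 and 1829 CPM in saline. Isg15 thus did not share the lower levels of Slfn1 and Cmpk2, and Ifitm3 was lower in Ter119 by less than 2-fold. The order of Isg15 varied with the share of S100a8 plus S100a9. Members at 10 to 20% of N had 1086 CPM in Ter119 and 256 CPM in saline, and those at 5 to 10% had 202 CPM in Ter119 and 665 CPM in saline. Summed interferon genes took a median of 0.687% of N in Ter119 members and 1.24% in saline members, with 95th percentiles of 1.88% in Ter119 and 3.79% in saline. H2-Q10, a secreted class I molecule, had 93.8 CPM in Ter119 and 521 CPM in saline, while the 500-UMI limit gave 202 CPM in Ter119 and 522 CPM in saline; it resembles other class I genes in sequence, and the sources used here do not say how reads shared between them were assigned. The part of hepatocyte RNA in the H2-Q10 ratio was not tested either. H2-D1, a classical class I chain, had 1857 CPM in Ter119 and 2823 CPM in saline. Of the 6 NADPH oxidase genes, which make the oxidative burst, 1 was at least 2-fold lower among the members, Ncf1 at 167 CPM in Ter119 and 389 CPM in saline, and 0 with the 500-UMI limit. Cybb, the catalytic subunit, had 966 CPM in Ter119 and 767 CPM in saline, but also 1271 CPM in Ter119 and 1934 CPM in saline Kupffer cells. The Fc receptor genes Fcgr3, with 303 CPM in Ter119 and 425 CPM in saline, and Fcgr4, with 275 CPM in Ter119 and 307 CPM in saline, stayed within 2-fold, while Fcgr2b, the inhibitory Fc receptor, had 209 CPM in Ter119 and 94.5 CPM in saline.

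Heme and iron genes were more often higher than lower in Ter119 members, and 15 of the 21 genes compared stood higher still in Ter119 Kupffer cells than in Ter119 members. The list had 21 heme, iron and NRF2 genes to compare. Ter119 members were 2-fold or more above saline in 10 and below it in 4, at a median log2 ratio of 0.78; these counts were 10 and 1 of 21 in the wider set, at a median of 0.66, and 5 and 1 of 17 after subtraction, at a median of 0.15. Hmox1, heme oxygenase, which breaks heme down, had 4518 CPM in Ter119 and 436 CPM in saline, a ratio of 10.4 (9.29 to 11.6), and 6524 CPM in Ter119 Kupffer cells and 968 CPM in saline Kupffer cells. Set against Kupffer RNA, Ter119 members had 0.681 Hmox1 UMIs per UMI of Cd5l, Clec4f and Marco, Ter119 lymphocytes 0.707, Ter119 immature neutrophils 0.599 and Ter119 Kupffer cells 0.568; in saline the values were 0.0897 in members, 0.0754 in lymphocytes and 0.0712 in Kupffer cells. The proportion of Hmox1 to Kupffer RNA in Ter119 thus lay between 0.568 and 0.707 in all 4 cell kinds, and every one was above the saline values. Csf3r had 0.0733 UMIs per Kupffer UMI in Ter119 members and 0.00224 in Ter119 Kupffer cells. The rule used Csf3r to choose members, and Kupffer cells were chosen by Cd5l, Clec4f and Marco. The Csf3r difference therefore describes the selection and says nothing about Hmox1. Ferritin heavy chain, Fth1, the iron store, had 26124 CPM in Ter119 and 7398 CPM in saline, and 3.94 UMIs per Kupffer UMI in Ter119 members, 5.02 in Ter119 lymphocytes and 2.84 in Ter119 Kupffer cells; in the 5 Ter119 and 2 saline members with no Kupffer UMI its log2 ratio was -0.81. The light chain Ftl1 had 17154 CPM in Ter119 and 6088 CPM in saline. Prdx1, a peroxide-removing enzyme, had 3101 CPM in Ter119 and 546 CPM in saline. Hmox1, Fth1, Ftl1 and Prdx1 stayed over 2-fold higher in the wider set. Gclm, which encodes a modifier subunit in glutathione synthesis, had 374 CPM in Ter119 and 67.4 CPM in saline. The list also had lower genes, such as Slc7a11, the cystine transporter, also named after its value was seen, with 90.6 CPM in Ter119 and 233 CPM in saline. Cd163, the hemoglobin receptor of macrophages, had 14.1 CPM in Ter119 and 349 CPM in saline with 31.7 CPM in Ter119 and 833 CPM in saline Kupffer cells. In the 49 Ter119 members with least Kupffer RNA, under 0.2% of N, Hmox1 was at 2450.4 CPM, against 224 CPM in the 118 such saline members. How much of these transcripts lay in the neutrophils themselves was not tested.

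Metabolic and survival genes moved in both directions, as did all genes, of which 14.0% were higher and 14.7% lower among the members. Over all genes these shares were 7.60% and 5.95% in the wider set, and 11.9% and 6.25% after subtraction from it. Of 17 glycolysis and hypoxia genes 7 were higher and 4 lower among the members, with a median log2 ratio of 0.55. In the wider set 7 were higher and 2 lower of 17 (median 0.45). With the Kupffer profile subtracted from that set 3 were higher and 1 lower of 15 (median 0.03). Slc2a3, the glucose transporter GLUT3 of neutrophils, had 65.6 CPM in Ter119 and 239 CPM in saline, while the 500-UMI limit gave 117 CPM in Ter119 and 238 CPM in saline; Pgk1, a glycolytic kinase, went the other way with 325 CPM in Ter119 and 123 CPM in saline. None of the 23 nuclear genes of oxidative phosphorylation passed 2-fold among the members or with the 500-UMI limit, although their median log2 ratios were 0.57 and 0.47. Of 18 survival and apoptosis genes 3 were higher and 7 lower among the members (median log2 ratio -0.66), among them Fas, a death receptor, at 34.4 CPM in Ter119 and 94.5 CPM in saline. In the wider set 2 were higher and 2 lower of 17 (median -0.49). With S100a8 plus S100a9 at 10% of N or more 4 were higher and 4 lower of 16 (median 0.26), beside 26.7% higher and 14.0% lower over all genes. Of 21 genes of extracellular traps and actin, 1 was higher and 4 lower among the members, and 1 higher and 0 lower of 21 in the wider set. Padi4, which citrullinates histones in trap formation, had 35.9 CPM in Ter119 and 96.9 CPM in saline. The 500-UMI limit gave 62.3 CPM in Ter119 and 96.6 CPM in saline for Padi4. Its log2 ratio was 0.38 among members with S100a8 plus S100a9 at 10% of N or more.

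The remaining lists are given with their counts, beside 14.0% higher and 14.7% lower over all genes among the members. In the wider set these shares were 7.60% and 5.95%. Transcription factors of the myeloid line had 1 higher and 9 lower of 20 among the members (median log2 ratio -0.81), and 0 higher and 3 lower of 20 in the wider set (median -0.53); Cebpd, a C/EBP family factor, had 179.7 CPM in Ter119 and 501 CPM in saline, while the 500-UMI limit gave 329 CPM in Ter119 and 502 CPM in saline. Lipid mediator genes had 1 higher and 4 lower of 8 among the members (median log2 ratio -0.63), and 1 higher and 1 lower of 8 in the wider set (median -0.55), and Fc and complement receptors had 1 higher and 1 lower of 11 among the members (median log2 ratio -0.31), and 0 higher and 0 lower of 11 in the wider set (median -0.25). Antigen presentation genes had 0 higher and 1 lower of 15 among the members (median log2 ratio -0.43), and 0 higher and 4 lower of 15 in the wider set (median -0.44), but 4 higher and 1 lower of 14 after subtraction from the members (median 0.19) and 5 higher and 1 lower of 15 in members with Kupffer RNA under 0.2% of N (median 0.46). Genes tied to neutrophil ageing or to tissue residence had 7 higher and 2 lower of 18 among the members (median log2 ratio 0.65), and 7 higher and 1 lower of 18 in the wider set (median 0.59). Among these, Gpnmb, a lysosomal glycoprotein of macrophages, had 192 UMIs in Ter119 and 0 in saline, at least 84.6-fold higher by a floor of 3 UMIs, with 0.0453 UMIs per Kupffer UMI in Ter119 members and 0.0683 in Ter119 lymphocytes. Its part from other cells was not tested.

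Among genes in none of the lists, the 10 with the largest ratios included Marco, Lgals1, Bpgm, Trem2, Fabp4, Anxa4, Fam46c, Vat1 and Ccdc152; Lgals1, galectin 1, had 458 CPM in Ter119 and 8.27 CPM in saline, and Trem2, a lipid-sensing receptor of macrophages, had 231 CPM in Ter119 and 11.8 CPM in saline with 279 CPM in Ter119 Kupffer cells. Bpgm, a red cell enzyme, had 109 CPM in Ter119 and 4.73 CPM in saline. Of these 10 genes 5 stood higher in Ter119 Kupffer cells than in Ter119 members, against 49.2% of all genes compared. The smallest belonged to Cxcl13, Gbp2b, Hist2h2aa1, Apoc1, Serpina3k, C4b, C6, Timd4, Apoa1 and Fabp1. Apoa1 is also a hepatocyte marker here, and hepatocyte markers summed higher in saline in every cell kind compared. Their sums in saline were 2048 CPM in members, 2351 in Kupffer cells and 1162 in lymphocytes, and in Ter119 372, 397 and 295 CPM. The part of hepatocyte RNA in these ratios was not tested. Apoc1, an apolipoprotein found in saline Kupffer cells at 3006 CPM, had 78.1 CPM in Ter119 and 1339 CPM in saline, and Cxcl13, a B cell chemokine of Kupffer cells, had 0 UMIs in Ter119 and 110 UMIs (130.0 CPM) in saline, at least 27.7-fold lower by a floor of 3 UMIs. Of the 10 genes with the smallest ratios 8 stood higher in saline Kupffer cells than in saline members, against 58.2% of all genes compared. The choice of both sets had left out genes over 5 times higher in Kupffer cells or lymphocytes, so these counts are a description.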

How the data were processed

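Single-cell RNA libraries of liver cells were used, 1 after Ter119 and 1 after saline. The authors deposited raw UMI counts per gene and barcode as filtered 10x matrices; the count files came from Cell Ranger 6.0.2, per the file headers. Build GRCm38.p6 and, of the authors' tools, DESeq2 1.26.0 and Seurat 3.2.3 as well as Scanpy 1.7.0 and version 4.0.0 of Cell Ranger stand in the submitters' processing notes. No replicate exists, so no count model was fitted. Members, lists and the rule for named genes were chosen with earlier results of these data known.

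Counts were summed over members and divided by N. Genes were compared where a library reached 50 CPM, hemoglobin genes left out, and called at 2-fold; a count of 0 was set to a floor of 3 UMIs. The 34 gene symbols that occur more than once, Itgam among them, were left out. Genes were named if they were among 26 core genes, among the 4 of a list that departed furthest from a ratio of 1, or, in no list, among the 10 highest or 10 lowest; these last needed 100 CPM, detection in 10% of members and a level no more than 5 times higher in Kupffer cells or lymphocytes. The Kupffer profile of each library (mean of its Kupffer cells) was scaled to the members' Cd5l, Clec4f and Marco and subtracted; Kupffer RNA inside true neutrophils would be removed with it. Lymphocytes had at least 3 UMIs of 7 lymphocyte genes, S100a8 plus S100a9 under 1% of N, and Cd5l, Clec4f and Marco under 0.5% of N. Shares with a UMI were also taken after thinning each cell to 500 UMIs. No doublet caller was run and doublets were not removed. Hashtag counts were not analysed. Some genes that the rule names are not reported here. The scripts were tested on simulated data. Sequences came from RefSeq start windows, of which the 250 bases before the start were used. Alternatives were other limits, scalings and filters. Computation used pandas 2.3.3, SciPy 1.17.1, NumPy 2.4.6 and matplotlib 3.10.9 under Python 3.11.15, with edgeR 4.0.16 in R 4.3.3 for TMM factors only.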

Additional observations from a re-analysis of the deposited data

Results flagged for a closer look

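Ter119 barcodes with at least 500 but under 1000 UMIs, which the selection leaves out, held many with the transcripts of mature neutrophils. Of 4475 such barcodes 711 (15.9%, 14.8 to 17.0%) met the other parts of the rule, against 3 of 1330 saline barcodes (0.226%, 0.0465 to 0.658%). The smallest barcode had 500 UMIs in the Ter119 matrix and 620 in the saline matrix, so the saline range began higher. This result stands out because the signal lies in barcodes that the selected cells do not include and is above the level in the saline library. The Ter119 group of 302 members was smaller than this set of 711 left-out barcodes, and Kupffer cells gave 0.516 times as many UMIs in Ter119 as in saline. The parts of sequencing depth and of the unlike floors in this difference were not tested.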

How the results depend on the processing

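No paired analysis was possible because each treatment had 1 sample, and for the same reason no replicate could be left out. The alternatives with S100a8 plus S100a9 at 10% of N, Kupffer RNA under 0.2%, hemoglobin at most 5%, and the 500-UMI limit with subtraction were chosen after seeing the data. The Ter119 share of mature neutrophils, 2.18%, was 5.78% at 500 UMIs, 1.62% at 2000 UMIs, 3.01% with at most 5% mitochondrial UMIs, 0.679% with S100a8 plus S100a9 at 5% of N, 0.354% at 10%, 0.0361% with no Kupffer UMI, 0.354% with Kupffer RNA under 0.2%, 1.61% with no Camp or Ngp UMI, and 1.37% with at most 5% hemoglobin. The saline share, 2.39%, was 2.04% at 2000 UMIs, 5.72% with at most 5% mitochondrial UMIs, 1.58% and 1.03% at the 2 S100a8 plus S100a9 limits, 0.0173% with no Kupffer UMI and 1.02% with Kupffer RNA under 0.2%. The mature stage among S100a8 and S100a9 cells, 30.7% in Ter119, was 56.7% at 500 UMIs, 27.1% at 2000, 13.4% and 8.05% at the 2 S100a8 plus S100a9 limits, 17.2% with no Kupffer UMI, 12.4% with Kupffer RNA under 0.2% and 26.2% with at most 5% hemoglobin; in saline, 98.9%, it was 66.7% with no Kupffer UMI, which leaves 2 members. Kupffer RNA in Ter119 members, 6631 CPM, was 5915 CPM at 500 UMIs, 7221 at 2000, 5937 with at most 5% mitochondrial UMIs, 4582 and 4435 at the 2 S100a8 plus S100a9 limits, 6103 with at most 5% hemoglobin and 5531 with hemoglobin in the denominator; in saline, 4859.7 CPM, it was 5307 at 2000 UMIs and 2159 and 2043 at the S100a8 plus S100a9 limits. The 515 higher genes became 263 at 500 UMIs, 111 with no Kupffer UMI, 937 with S100a8 plus S100a9 at 10%, 1063 with Kupffer RNA under 0.2%, 256 with hemoglobin in the denominator, 909 after thinning, 971 after subtraction, and 1061, 152 and 2815 with floors of 20 CPM, 200 CPM and none. The 540 lower genes became 206 at 500 UMIs, 196 with subtraction as well, 100 with no Kupffer UMI, and 861, 188 and 2221 with the 3 floors. With TMM factors 437 genes were higher and 607 lower, and with hemoglobin in the denominator 774 were lower. Of the named genes past 2-fold among the members that had a value, 58 of 83 stayed past it at 500 UMIs and 30 of 77 with subtraction as well. Among named genes past 2-fold in the members, log2 ratios that turned sign at 500 UMIs with subtraction were those of S100a8 (0.020), S100a9 (0.13), Pglyrp1 (0.028) and Clec4n (-0.30); Retnlg, within 2-fold in the members at -0.59, was at 0.58. With no Kupffer UMI, 5 Ter119 and 2 saline cells, Fth1 was at -0.81 and Fabp5 at -0.30; Ccrl2 was at 0.28 with S100a8 plus S100a9 at 5% and Padi4 at 0.38 with it at 10%. Why these turned was not tested. Depth limits the values most in Ter119, where the median member had 1975 UMIs.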

Other observations

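Among lymphocytes, S100a8 stood at 179 CPM in Ter119 (184 cells) and 9.61 CPM in saline (111 cells), and among Kupffer cells at 188 CPM in Ter119 and 29.2 CPM in saline. These cells should lack the gene, but both kinds were chosen with S100a8 plus S100a9 under 1% of N. Barcodes above that cap are left out, so the values describe the chosen cells and not the full background. At least 3 UMIs of lymphocyte genes were found in 7 Ter119 members and 0 saline members.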
